A study of Rattus norvegicus with 27 samples.

Results

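The genes of cholesterol and fatty acid synthesis were followed through 3 culture stages of rat Schwann cells, which wrap the axons of peripheral nerves in myelin. The list held 29 genes and was chosen by name, from the enzymes of the pathways and the proteins that control them, and 28 of the 29 matched a row among the 17315 genes of the cell mRNA table. The exception was *Scd*, a stearoyl-CoA desaturase: the table names rows *Scd1* and *Scd2* instead. RefSeq gives *Scd1* as another symbol of *Scd*, and also gives *Scd* as another symbol of *Scd2*. Which row stands for the listed gene is therefore not settled, and both rows are described separately and left out of the totals of the 28. The promoter window under the symbol *Scd* is counted among the windows searched. All 28 passed the filter on low counts, as did 10372 genes in all.

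Each stage was sampled in 3 libraries that the labels call biological replicates. Undifferentiated cells were kept without dibutyryl cyclic AMP (dbcAMP), an analogue of cyclic AMP that enters cells. For the differentiated stage, 1 mM dbcAMP was present over 72 h in a low-serum medium, the culture counterpart of a myelinating state. Dedifferentiated cells had the same treatment and then 72 h in a richer medium that contained forskolin, neuregulin and more serum but no dbcAMP. The cells were bought as a primary preparation and used at low passage, and the labels do not name separate animals or lots for the replicates, so that p-values measure the spread between these cultures. The medium of the undifferentiated cells is given only as lacking agents of dbcAMP induction, and the effects of stage and medium cannot be told apart. Replicate 3 of each stage was sequenced in another project than replicates 1 and 2.

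Cholesterol is built from acetyl-CoA in the mevalonate pathway, which ends in farnesyl diphosphate, and in the sterol branch, which joins farnesyl units to squalene, closes the ring as lanosterol and trims it to cholesterol. Fatty acids are made from the same acetyl-CoA pool. Transcription factors of the SREBP family, encoded by *Srebf1* and *Srebf2*, switch on both pathways when membranes are poor in sterol; SCAP escorts them from the endoplasmic reticulum and INSIG proteins hold them back. Myelin is a membrane rich in cholesterol and in long fatty acids, and Schwann cells make much of both themselves while they myelinate.

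Library totals ran from 10058732 to 16212282 estimated counts, so that 3 counts correspond to 0.185 to 0.298 CPM (counts scaled to a library total of 1000000). The lowest level of any of the 28 genes in any library was 3.75 CPM, for *Hsd17b7*. All 6 Schwann cell markers were tested and summed to 7970 to 9230 CPM in undifferentiated, 8400 to 11000 in differentiated and 18200 to 21100 in dedifferentiated cells, with *Sox10* at 964 to 1539 CPM. Of 7 fibroblast markers, *Col1a1* and *Col1a2* made up most of a summed level of 24400 to 29100 CPM in undifferentiated, 12000 to 15700 in differentiated and 16000 to 19600 in dedifferentiated cells, while *Lum* was at 0 everywhere and *Dcn* and *Pdgfra* stayed at or under 0.884 CPM. *Col3a1* went the other way, with means of 53.2, 92.0 and 147 CPM in the same order of stages. *Thy1* had means of 0.896, 0.993 and 0.903 CPM. The summed endothelial (4 genes), leukocyte (4 genes) and adipocyte (4 genes) markers reached at most 8.26, 5.09 and 0.385 CPM, with *Cdh5* and *Aif1* at 0 in every library. The part of other cell types in the results below was not tested.

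The sterol genes differed between replicates of a stage as well as between stages. Of the 19 mevalonate and sterol genes, 16 had their highest undifferentiated value in replicate 1 and 16 their lowest in replicate 2. In differentiated cells, 19 of 19 were lowest in replicate 2. Over the 10372 genes tested, these 3 counts were 4060, 3135 and 3466. The median deviation from the stage mean was 0.34 in undifferentiated replicate 1 and -0.30 in undifferentiated replicate 2 on the log2 scale, and -0.33 in differentiated replicate 2, against -0.002 to 0.005 for all genes tested over the 9 libraries. The median standard deviation (SD) of log2 CPM within a stage was 0.345 for the 19 genes in undifferentiated cells, 0.293 in differentiated cells and 0.101 in dedifferentiated cells, where all genes tested gave 0.155, 0.135 and 0.147. The 4 fatty acid genes gave 0.133, 0.105 and 0.215. The sterol genes thus varied more than most genes between cultures of the first 2 stages and less than most after withdrawal, as a description of these 9 libraries.

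**Figure D1:**
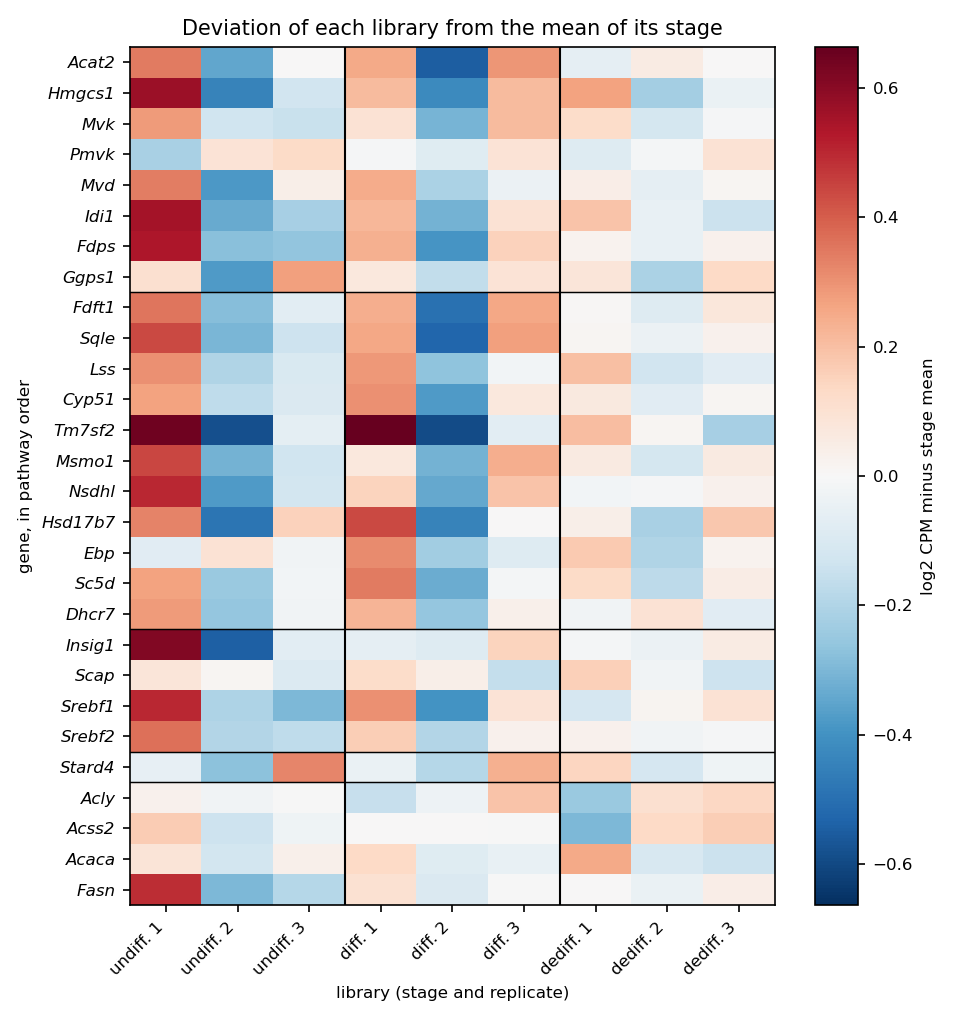
Deviation of each library from the mean of its stage (columns, stage and replicate) for the 28 genes in pathway order (rows), on the log2 CPM scale with a composition factor and a prior count of 2; red is above and blue below the mean. The column of differentiated replicate 2 is blue for all 19 mevalonate and sterol genes, and that of undifferentiated replicate 1 is red for 17 of the 19.

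Differentiated and undifferentiated cells were compared first, to measure these genes under dbcAMP. Of the 28 genes, 14 were higher in differentiated cells and 0 were lower at an edgeR adjusted p under 0.05, by 1.32-fold to 2.74-fold. Over all genes tested, 31.7% were called higher and 27.9% lower, and 59.6% in either direction, so the list held more upward calls (50%) and fewer downward calls (0%) than the table as a whole. An unadjusted p under 0.05 was reached by 16 of the 28, and DESeq2's Wald test called 14 higher and 0 lower. The median log2 change was 0.46 for the list and 0.05 for all genes tested. By role, 4 of 4 fatty acid genes were called, 6 of 11 sterol genes, 2 of 8 mevalonate genes, 2 of 4 regulators and not *Stard4*, a carrier of cholesterol between membranes. Libraries of the 2 stages did not overlap, with higher values in differentiated cells, for 13 of the 28 genes, against 38.9% of all genes, and with lower values for 0, against 27.4%. Without undifferentiated replicate 1 the count of genes called was 20, and without differentiated replicate 2 it was 17. Without undifferentiated replicate 2 it was 10. In these settings, in the same order, 57.5%, 54.5% and 53.5% of all genes were called in either direction. Replicates 1 and 2 alone, which share a sequencing project, gave 8 calls, and the share of all genes called fell to 42%. The other project held 1 library per stage and allowed no test.

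**Figure D2:**
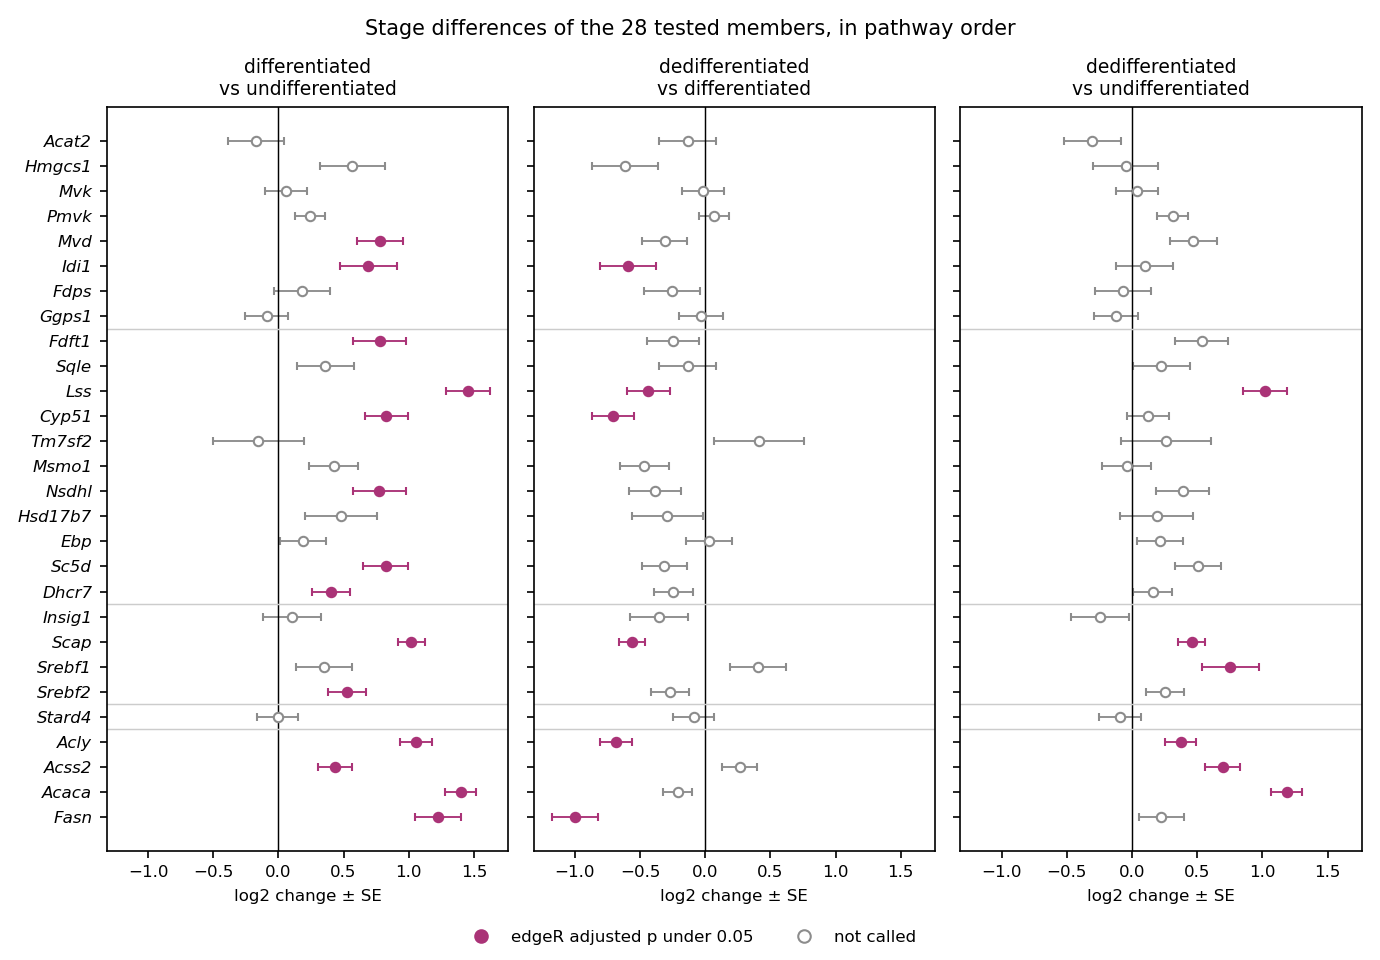
Log2 change with its standard error (x axis) for the 28 genes in pathway order (y axis) in the 3 comparisons; filled points had an edgeR adjusted p under 0.05 and open points did not. In the left panel 14 points are filled, all to the right of 0, and the largest belongs to *Lss* at 1.46.

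All 4 fatty acid genes were called higher under dbcAMP, with log2 changes from 0.43 to 1.40. *Acly*, ATP citrate lyase, which cuts citrate into cytosolic acetyl-CoA for both pathways, measured 646, 638 and 666 CPM in undifferentiated replicates 1 to 3, 1242, 1382 and 1616 in differentiated and 724, 927 and 965 in dedifferentiated cells. The 3 stages did not overlap, with undifferentiated cells lowest. It was 2.08-fold higher in differentiated than in undifferentiated cells (log2 change 1.06, SE 0.122, edgeR adjusted p = 2.75e-05). *Acaca*, acetyl-CoA carboxylase, which makes the malonyl-CoA that commits acetyl units to fatty acids, stood at 48.6, 43.1 and 49.5 CPM before dbcAMP, 139, 123 and 126 under it and 130, 102 and 101 after withdrawal. Every library of the later 2 stages lay above every undifferentiated one, and the change under dbcAMP was 2.64-fold (log2 change 1.40, SE 0.118, edgeR adjusted p = 2.73e-06).

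*Fasn*, the fatty acid synthase that lengthens the chain to palmitate, measured 561, 333 and 371 CPM in undifferentiated, 1087, 974 and 1039 in differentiated and 509, 494 and 534 in dedifferentiated cells. The differentiated libraries stood apart from all others, while undifferentiated replicate 1 lay above the 3 dedifferentiated ones. The rise under dbcAMP was 2.34-fold (log2 change 1.23, SE 0.175, edgeR adjusted p = 0.00014). *Acss2*, which makes acetyl-CoA from acetate, moved least of the 4 under dbcAMP, from 25.1, 20.8 and 23.0 to 31.9, 32.7 and 32.6 CPM, and measured 30.8, 41.7 and 43.3 after withdrawal. Its log2 change under dbcAMP was 0.43 (SE 0.134, edgeR adjusted p = 0.0166), and the call was lost without undifferentiated replicate 2 or 3 and with replicates 1 and 2 alone.

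The desaturases that follow *Fasn* carry a limit of counting. *Scd1* and *Scd2* had fractional counts in all 9 libraries, the mark of reads shared between similar genes, and *Scd1* held 0.322% to 1.43% of their joint counts, so that its level is uncertain. *Scd1* measured 49.0, 11.7 and 18.1 CPM in undifferentiated, 43.1, 21.8 and 47.5 in differentiated and 22.7, 27.8 and 31.3 in dedifferentiated cells. Its stages overlapped, and the difference under dbcAMP was not called (log2 change 0.44, SE 0.451, edgeR adjusted p = 0.422). Without undifferentiated replicate 1, its highest library, it was called higher under dbcAMP, with a log2 change of 1.28 (edgeR adjusted p = 0.00529). *Scd2* was among the 10 most abundant genes of the table. It took 0.234% ± 0.0909 of all counts in undifferentiated, 0.756% ± 0.0852 in differentiated and 0.593% ± 0.0618 in dedifferentiated libraries (SD, n = 3), and rose under dbcAMP by 1.62 on the log2 scale (SE 0.24; adjusted p = 0.00018, edgeR). Against undifferentiated cells it was also higher after withdrawal (log2 change 1.28, SE 0.238, edgeR adjusted p = 0.00245). That call was lost with replicates 1 and 2 alone (edgeR adjusted p = 0.0586). The 28 genes together took 0.33% ± 0.0639, 0.588% ± 0.0646 and 0.402% ± 0.0131 at the stages in the same order (SD, n = 3).

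**Figure D3:**
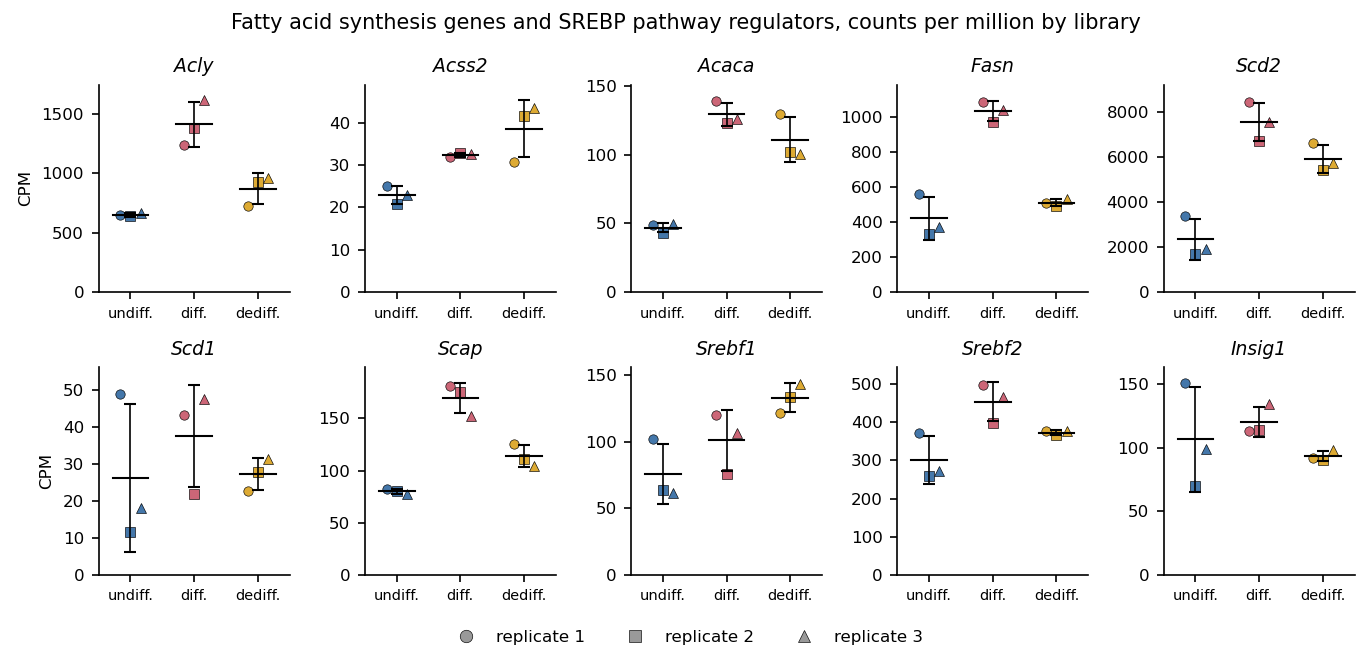
CPM (y axis, from 0) of fatty acid synthesis genes and of the regulators in the 3 stages (x axis); symbols are replicates, bars the mean and whiskers 1 SD (n = 3). *Acaca*, *Acly*, *Fasn* and *Scap* in differentiated cells lie above every undifferentiated library, and *Srebf1* is highest in dedifferentiated cells.

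In the sterol branch the gene with the largest change was *Lss*, lanosterol synthase, which closes the sterol ring. It measured 50.8, 36.6 and 40.4 CPM in undifferentiated, 145, 101 and 120 in differentiated and 102, 81.3 and 85.8 in dedifferentiated cells, and no library of the later stages fell within the undifferentiated range. Under dbcAMP it was 2.74-fold higher (log2 change 1.46, SE 0.168, edgeR adjusted p = 2.82e-05). *Cyp51*, the demethylase of the next step, measured 255, 193 and 209 CPM before dbcAMP, 485, 310 and 423 under it and 255, 233 and 252 after withdrawal. Only the differentiated libraries stood apart, and the rise was 1.78-fold (log2 change 0.83, SE 0.163, edgeR adjusted p = 0.00127).

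*Sc5d*, a desaturase near the end of the branch, went from 54.4, 39.0 and 47.1 to 106, 68.2 and 85.0 CPM under dbcAMP and stood at 74.4, 60.6 and 72.0 after withdrawal. Undifferentiated libraries were the lowest for this gene, and the 2 later stages overlapped. Its log2 change was 0.82 (SE 0.174, edgeR adjusted p = 0.00201). *Nsdhl*, a dehydrogenase that takes part in removing the methyl groups at carbon 4, measured 47.7, 26.6 and 32.8 CPM, then 68.7, 50.3 and 72.8, then 47.6, 48.0 and 50.2, and rose by 0.77 on the log2 scale (SE 0.202, edgeR adjusted p = 0.00696). Undifferentiated replicate 1 reached the level of the dedifferentiated libraries.

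*Fdft1*, squalene synthase, which opens the sterol branch, measured 80.7, 53.2 and 63.5 CPM in undifferentiated, 133, 82.0 and 138 in differentiated and 98.5, 92.6 and 105 in dedifferentiated cells. Its highest undifferentiated library lay just below differentiated replicate 2, and the log2 change was 0.78 (SE 0.201, edgeR adjusted p = 0.0066). *Dhcr7*, a reductase of the final steps, was called with the smallest change of the branch (log2 change 0.40, SE 0.149, edgeR adjusted p = 0.037) and lost its call in 7 of 14 alternatives. The 5 sterol genes not called were *Sqle*, *Tm7sf2*, *Msmo1*, *Hsd17b7* and *Ebp*, with log2 changes from -0.15 for *Tm7sf2* to 0.48 for *Hsd17b7*. For *Sqle*, squalene epoxidase, a step that controls the flux to sterols, the log2 change was 0.36 (SE 0.22, edgeR adjusted p = 0.18), and for *Msmo1*, which oxidises the carbon 4 methyl groups, it was 0.43 (SE 0.188, edgeR adjusted p = 0.0726). Both were called without undifferentiated replicate 1 and without differentiated replicate 2, and *Msmo1* also with the replicate number as a block (log2 change 0.44, edgeR adjusted p = 0.0186).

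**Figure D4:**
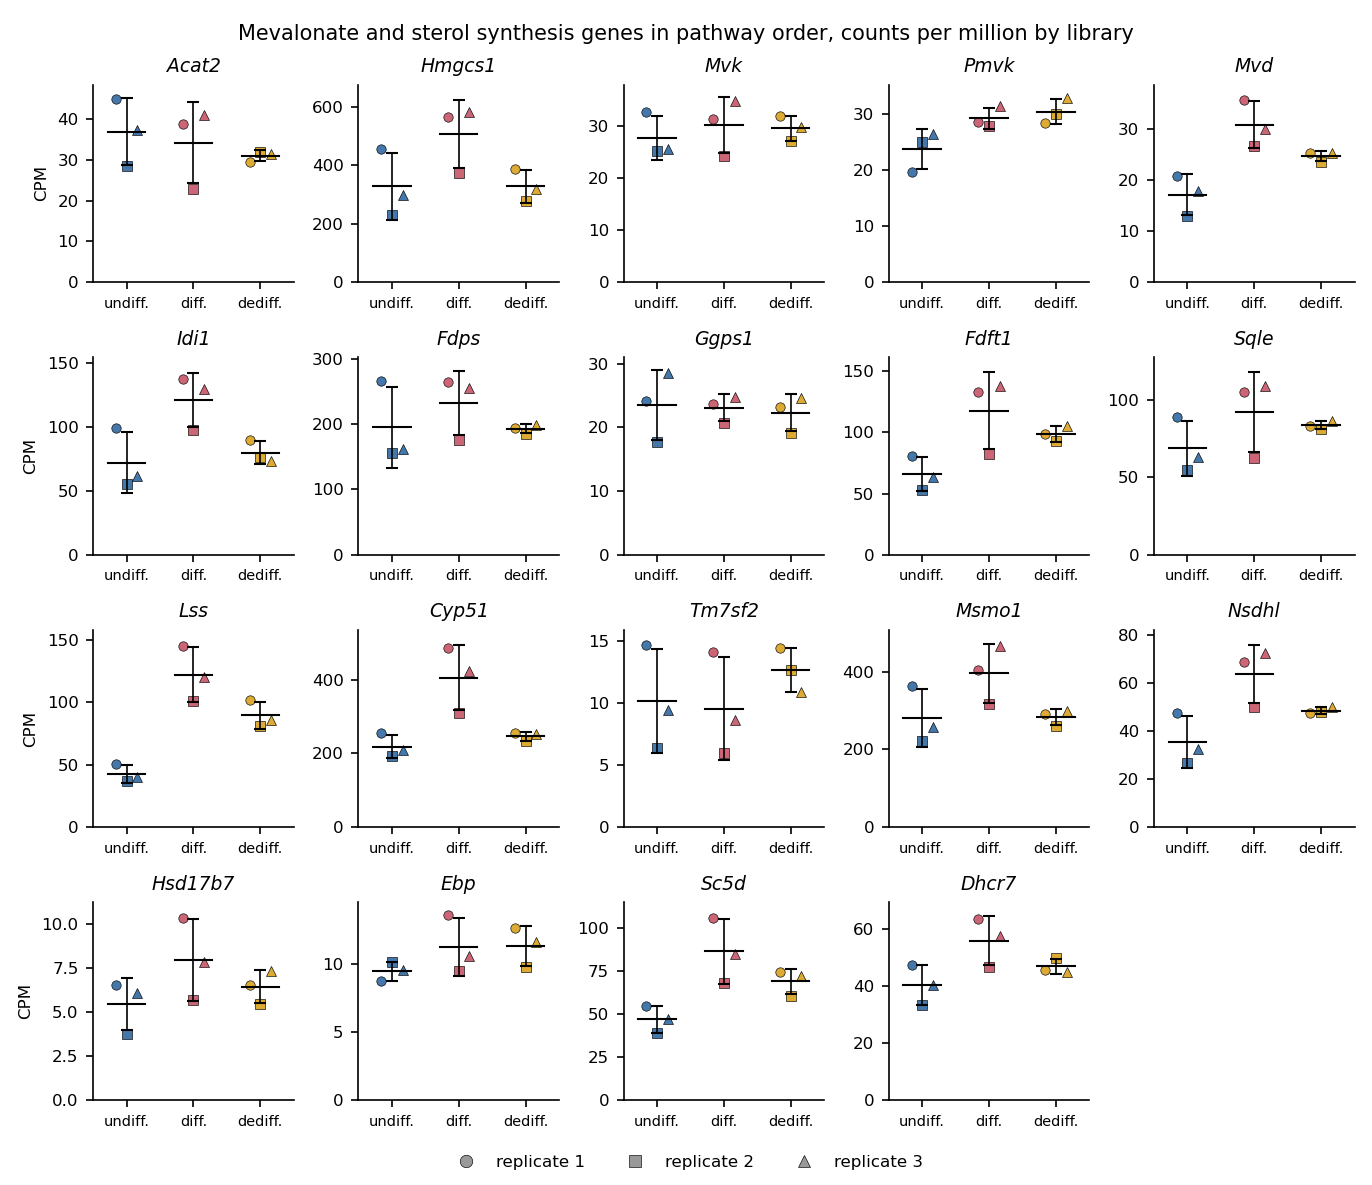
CPM (y axis, from 0) of the 8 mevalonate and 11 sterol genes in pathway order, by stage (x axis); symbols are replicates, bars the mean and whiskers 1 SD (n = 3). For *Lss* the undifferentiated libraries lie at 36.6 to 50.8 CPM and all others at 81.3 or above, while for *Acat2*, *Ggps1* and *Mvk* the 3 stages overlap.

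Of the mevalonate genes, *Mvd* and *Idi1* were called under dbcAMP. *Mvd*, the decarboxylase that yields isopentenyl diphosphate, measured 20.8, 12.9 and 17.8 CPM in undifferentiated, 35.8, 26.7 and 30.1 in differentiated and 25.3, 23.6 and 25.3 in dedifferentiated cells. The 3 stages did not overlap, and it rose by 0.78 on the log2 scale (SE 0.176, edgeR adjusted p = 0.00292). *Idi1*, the isomerase that turns isopentenyl into dimethylallyl diphosphate, measured 99.2, 55.2 and 61.5, then 137, 97.4 and 130, then 90.1, 76.7 and 73.2 CPM. Undifferentiated replicate 1 lay above differentiated replicate 2, and the log2 change of 0.69 (SE 0.218, edgeR adjusted p = 0.0186) lost its call in 5 of 14 alternatives, each of which left out at least 1 library.

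*Hmgcs1*, which makes the HMG-CoA that feeds the pathway, measured 455, 231 and 297 CPM in undifferentiated, 567, 374 and 583 in differentiated and 389, 278 and 319 in dedifferentiated cells. The ranges of the stages overlapped and the log2 change of 0.57 under dbcAMP was not called (SE 0.251, edgeR adjusted p = 0.0733). It was called without undifferentiated replicate 1, without differentiated replicate 2 and with the replicate number as a block (log2 change 0.60, edgeR adjusted p = 0.00302). The kinases *Mvk* and *Pmvk*, the synthases *Fdps* and *Ggps1*, which make the farnesyl and geranylgeranyl diphosphates, and *Acat2*, the thiolase that joins the first acetyl units, had log2 changes from -0.17 for *Acat2* to 0.24 for *Pmvk*. None of these 5 was called in any of the 3 comparisons with all 9 libraries and no block. *Fdps* was called higher under dbcAMP without undifferentiated replicate 1 (log2 change 0.50, edgeR adjusted p = 0.0175), and *Pmvk* was called higher in dedifferentiated than in undifferentiated cells with the replicate number as a block (log2 change 0.31, edgeR adjusted p = 0.0481).

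The regulators did not move as a block. *Scap* measured 82.4, 80.7 and 77.2 CPM in undifferentiated, 181, 175 and 153 in differentiated and 126, 111 and 105 in dedifferentiated cells. The 3 stages were fully separate, with a spread between undifferentiated libraries of 2.62 CPM (SD, n = 3). It was 2.03-fold higher under dbcAMP (log2 change 1.02, SE 0.102, edgeR adjusted p = 1.02e-05). *Srebf2*, whose product acts mainly on cholesterol genes, measured 372, 259 and 272 CPM, then 497, 398 and 467, then 377, 366 and 376. Differentiated libraries were above all others, and the log2 change was 0.53 (SE 0.146, edgeR adjusted p = 0.00941).

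*Srebf1*, whose product acts mainly on fatty acid genes, measured 102, 64.0 and 61.7 CPM in undifferentiated, 120, 75.9 and 107 in differentiated and 122, 134 and 144 in dedifferentiated cells. Its dedifferentiated libraries were the highest, and undifferentiated and differentiated libraries overlapped (log2 change under dbcAMP 0.35, SE 0.215, edgeR adjusted p = 0.186). *Insig1*, a sterol-induced brake on SREBP export that is itself an SREBP target, measured 151, 69.5 and 99.2 CPM, then 113, 114 and 134, then 91.6, 90.3 and 97.9. Undifferentiated replicate 1 was the highest of the 9 libraries and undifferentiated replicate 2 the lowest, and the log2 change under dbcAMP of 0.11 was not called (SE 0.221, edgeR adjusted p = 0.702). Without undifferentiated replicate 1 it was called higher.

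The windows around the annotated start sites of these genes were searched for short motifs, since *Lss*, *Mvd*, *Nsdhl* and *Cyp51* were all called under dbcAMP. RefSeq (assembly GRCr8) gave a window of 250 bases before and 50 bases after the start for 23 of the 29 genes, and none was matched for *Pmvk*, *Fdft1*, *Sqle*, *Stard4*, *Acaca* and *Fasn*. A gene counted when any of its windows held the motif, *Scd* included, while the shares set beside the genes are of windows. The pentamer CCAAT, the core of the box bound by NF-Y, a factor known to act beside SREBP, was present on either strand in 18 of the 23 (78.3%), against 37.5% of all 33469 windows and 37.4% of the 8353 windows of genes tested here. The GC box GGGCGG was present in 19 (82.6%), against 64.7% of the windows of tested genes. The short form of the cyclic AMP response element, TGACG, was present in 11 (47.8%), against 33.1%, and the full TGACGTCA, which contains it, in 0, against 3.45%. The E-box CACGTG was present in 3 (13%), against 9.29%. The sterol element written as TCACNCCAC was present in 0, against 1.16%, and says only that these letters are not in these windows. Among genes with a window, CCAAT was present in 8 of 11 called higher under dbcAMP and in 10 of 11 not called. It was not in the window of *Scd*.

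Of the 4 windows printed, *Nsdhl* held the most boxes of the called genes, *Lss* had the largest change of the sterol branch, *Mvd* was the mevalonate gene whose stages did not overlap, and *Cyp51* is a called gene with no CCAAT. Each is written 5′ to 3′ on the strand of the gene, and capitals mark CCAAT or its reverse complement ATTGG.
*Nsdhl*, chrX:155817110-155817409, plus strand: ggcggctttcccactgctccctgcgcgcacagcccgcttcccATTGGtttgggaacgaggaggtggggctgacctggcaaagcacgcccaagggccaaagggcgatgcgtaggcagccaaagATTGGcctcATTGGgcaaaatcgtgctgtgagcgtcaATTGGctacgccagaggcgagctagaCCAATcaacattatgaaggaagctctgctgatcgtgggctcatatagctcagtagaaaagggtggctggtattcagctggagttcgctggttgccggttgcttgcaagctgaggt
*Lss*, chr20:12118181-12118480, minus strand: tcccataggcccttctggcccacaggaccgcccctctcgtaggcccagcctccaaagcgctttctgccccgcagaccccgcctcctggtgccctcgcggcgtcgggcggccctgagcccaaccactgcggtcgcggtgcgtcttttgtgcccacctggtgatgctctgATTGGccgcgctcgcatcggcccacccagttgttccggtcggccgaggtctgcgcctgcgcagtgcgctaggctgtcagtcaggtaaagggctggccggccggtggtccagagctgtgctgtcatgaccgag
*Mvd*, chr19:67414925-67415224, minus strand: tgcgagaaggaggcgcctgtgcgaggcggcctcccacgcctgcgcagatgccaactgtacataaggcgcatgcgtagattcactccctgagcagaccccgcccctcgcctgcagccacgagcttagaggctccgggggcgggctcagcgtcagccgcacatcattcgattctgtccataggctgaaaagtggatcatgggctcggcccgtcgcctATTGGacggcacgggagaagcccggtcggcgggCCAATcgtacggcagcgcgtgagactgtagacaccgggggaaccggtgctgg
*Cyp51*, chr4:30991443-30991742, plus strand: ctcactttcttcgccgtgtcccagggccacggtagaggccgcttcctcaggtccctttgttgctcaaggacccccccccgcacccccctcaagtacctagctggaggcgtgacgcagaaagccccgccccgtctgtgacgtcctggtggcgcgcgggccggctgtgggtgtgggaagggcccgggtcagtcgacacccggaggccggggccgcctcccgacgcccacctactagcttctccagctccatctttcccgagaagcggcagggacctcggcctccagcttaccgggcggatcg

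Dedifferentiated and differentiated cells were compared next, to measure withdrawal. This comparison uses the same differentiated libraries as the first one, so that the comparisons are not independent. Of the 28 genes, 6 were lower after withdrawal and 0 were higher. The share called lower, 21.4%, was close to the 23.2% of all genes, and the 0% called higher lay under the background of 23.2%, with 46.4% of all genes called in either direction. An unadjusted p under 0.05 was reached by 8 genes, and DESeq2's Wald test called 7 lower and 0 higher. Libraries did not overlap for 10 genes with lower values, against 30.2% of all genes, and for 1, *Srebf1*, with higher values, against 28.3%. The median log2 change was -0.26 for the list and -0.01 for all genes tested. *Fasn* fell by 1.00 on the log2 scale (SE 0.175, edgeR adjusted p = 0.000944), to 0.5 of its differentiated level. *Cyp51* fell by 0.71 (SE 0.163, edgeR adjusted p = 0.00498), *Acly* by 0.68 (SE 0.121, edgeR adjusted p = 0.00102) and *Scap* by 0.56 (SE 0.101, edgeR adjusted p = 0.00116). *Idi1* and *Lss* were also called, near the threshold (edgeR adjusted p = 0.0455 and 0.0484), and lost the call in 7 and 6 of 14 alternatives. *Hmgcs1* and *Msmo1* showed log2 changes of -0.62 and -0.47 and missed the threshold (edgeR adjusted p = 0.066 for the first and 0.0634 for the other). With the replicate number as a block both were called lower, as was *Sc5d* (edgeR adjusted p = 0.00406, 0.0205 and 0.0208), and the count of genes called lower was 9. Without differentiated replicate 2, the lowest differentiated library for the sterol genes, 10 genes were called lower. Replicates 1 and 2 alone gave 3. Of all genes, 38.7% and 25.1% were called in either direction in these settings.

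*Acaca*, *Acss2* and *Srebf1* did not fall by the test. *Acaca* had a log2 change of -0.21 on withdrawal (SE 0.114, edgeR adjusted p = 0.153). *Acss2* and *Srebf1* had positive log2 changes, 0.26 with an edgeR adjusted p = 0.126 for *Acss2* and 0.41 with 0.142 for *Srebf1*. For *Srebf1* every dedifferentiated library lay above every differentiated one. *Acss2* was called higher without dedifferentiated replicate 1, where *Acaca* was called lower.

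Dedifferentiated and undifferentiated cells were compared last, to see which genes differed between them. The labels do not give the same medium for these stages, so a return to a starting level was not tested. Of the 28 genes, 6 were higher in dedifferentiated cells (21.4%, against 16.1% of all genes) and 0 were lower (against 13.3%), where 29.4% of all genes were called in either direction. An unadjusted p under 0.05 was reached by 10 genes, and DESeq2's Wald test called 7 higher and 0 lower. Libraries did not overlap for 10 genes with higher values, against 26.8% of all genes, and for 0 with lower values, against 17.1%. The 6 were *Acaca*, *Lss*, *Srebf1*, *Acss2*, *Scap* and *Acly*. *Acaca* was 2.28-fold (log2 change 1.19, SE 0.118, edgeR adjusted p = 3.89e-05) and *Lss* 2.03-fold higher (log2 change 1.02, SE 0.168, edgeR adjusted p = 0.00114). *Acss2* was 1.62-fold (log2 change 0.70, SE 0.134, edgeR adjusted p = 0.003) and *Scap* 1.37-fold higher (log2 change 0.46, SE 0.102, edgeR adjusted p = 0.00704). *Srebf1* was 1.69-fold higher (log2 change 0.76, SE 0.216, edgeR adjusted p = 0.0238), and lost its call in 5 of 14 alternatives. For *Acly* the log2 change was 0.37 (SE 0.121, edgeR adjusted p = 0.0393), the least firm of the 6, with the call lost in 8 of 14. *Fasn* and *Cyp51* did not differ detectably from undifferentiated cells (log2 changes 0.22 and 0.12, SE 0.173 and 0.163, edgeR adjusted p = 0.368 and 0.621). *Mvd*, *Fdft1* and *Sc5d* had no overlap between these stages but missed the threshold (edgeR adjusted p = 0.0699, 0.0705 and 0.0502). With the replicate number as a block these 3 were called (edgeR adjusted p = 0.018, 0.0144 and 0.00224), as was *Pmvk*, and the count was 10. Without undifferentiated replicate 1 the count of genes called higher was 11, with *Mvd*, *Fdft1*, *Nsdhl*, *Sc5d*, *Srebf2* and *Fasn* added and *Acly* lost. Of all genes, 25.8% were then called in either direction. Replicates 1 and 2 alone left 3 genes called, with 12.4% of all genes called in either direction.

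Side by side, the called genes were grouped by the comparisons that called them. Differences between genes were not tested. Calls near the threshold, such as those of *Lss* and *Idi1* on withdrawal, decided some of the groups. *Idi1*, *Cyp51* and *Fasn* were called higher under dbcAMP and lower on withdrawal and were not called between dedifferentiated and undifferentiated cells. *Lss*, *Scap* and *Acly* were called higher, then lower, and were called above undifferentiated cells in the last comparison. *Acss2* and *Acaca* were called above undifferentiated cells at both later stages, with no call on withdrawal. *Mvd*, *Fdft1*, *Nsdhl*, *Sc5d*, *Dhcr7* and *Srebf2* were called under dbcAMP alone, and *Srebf1* was called in the last comparison alone. The remaining 13 genes were called in no comparison. In means, 21 of the 28 genes were highest in differentiated cells, 5 in dedifferentiated and 2 in undifferentiated cells, and 22 were lowest in undifferentiated cells. The same counts were not made over all genes tested, so these describe the list alone.

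Genes next to these pathways were taken from a list of 53, of which 41 were tested. Under dbcAMP 15 of the 41 were called higher (36.6%) and 10 lower (24.4%), near the background of 31.7% and 27.9%. Genes of the list that were not tested included *Idi2*, *Acat3*, *Faxdc2*, *Erg28*, *Nr1h3*, *Abcg1*, *Thrsp*, *Lpl*, *Cd36*, *Ppargc1a* and *Pparg*. Among 15 genes of chain elongation, desaturation and supply, 7 were called higher. *Hacd3*, a dehydratase of the elongation cycle, measured 49.9, 48.4 and 49.1 CPM in undifferentiated, 190, 172 and 166 in differentiated and 84.0, 73.5 and 78.2 in dedifferentiated cells, with no overlap between stages (log2 change under dbcAMP 1.78, SE 0.0907, edgeR adjusted p = 7.08e-08). *Elovl6*, the elongase that takes palmitate to stearate, rose from 27.9 ± 5.5 to 115 ± 11.6 CPM (SD, n = 3; log2 change 1.98, edgeR adjusted p = 2.55e-07), and *Elovl1*, which makes very long chains, from 113 ± 3.26 to 320 ± 24.3 CPM (SD, n = 3; log2 change 1.44, edgeR adjusted p = 1.3e-06). *Elovl7*, named after its values were seen, had no counts in undifferentiated libraries and its means lay at least 29.3-fold higher under dbcAMP and at least 18.2-fold higher after withdrawal, against 3 counts in the shallowest undifferentiated library. *Slc25a1*, *Fads1* and *Fads3* were called lower under dbcAMP. *Fads3*, a fatty acid desaturase by name, had a log2 change of -1.40 (edgeR adjusted p = 3.2e-06). *Me1*, malic enzyme, a source of NADPH for synthesis, was also chosen after its values were seen: its mean was 15.8 ± 1.54 CPM before dbcAMP, 23.1 ± 4.51 under it and 53.9 ± 9.43 after withdrawal (SD, n = 3), and it rose by 1.23 on the log2 scale on withdrawal (SE 0.165, edgeR adjusted p = 0.000164).

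Genes that move cholesterol changed in both directions, as did the genes of the table as a whole. Of 10 tested, *Abca1*, *Npc1* and *Stard3* were called higher under dbcAMP (30%, against 31.7% of all genes). *Npc2*, *Soat1*, *Vldlr*, *Lrp1* and *Scarb1* were called lower (50%, against 27.9%). *Abca1*, which exports cholesterol to apolipoproteins, measured 136, 157 and 157 CPM in undifferentiated, 844, 1001 and 701 in differentiated and 362, 244 and 291 in dedifferentiated cells. The stages were fully separate, with a log2 change of 2.44 under dbcAMP (SE 0.165, edgeR adjusted p = 5.17e-07) and -1.49 on withdrawal (SE 0.159, edgeR adjusted p = 3.43e-05). *Npc2*, which hands cholesterol on inside lysosomes, fell by 1.23 under dbcAMP and rose by 1.02 on withdrawal, in log2 units (edgeR adjusted p = 1.27e-06 and 1.17e-05). *Scarb1*, a receptor for high density lipoprotein, fell by 1.33 and rose by 1.02 (edgeR adjusted p = 8.05e-07 and 1.4e-05). *Vldlr*, a lipoprotein receptor, fell by 0.68 under dbcAMP and rose by 1.04 on withdrawal, in log2 units (edgeR adjusted p = 3.51e-05 and 3.96e-06).

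In the control of SREBP, *Mylip*, a ubiquitin ligase that marks lipoprotein receptors for degradation, was called higher under dbcAMP and *Mbtps1*, the first protease that frees SREBP, lower, among 6 genes tested. Each direction held 16.7% of the 6, against 31.7% higher and 27.9% lower over all genes. *Mylip* had means of 39.0 ± 6.46 CPM before dbcAMP, 110 ± 8.18 under it and 73.7 ± 9.8 after withdrawal (SD, n = 3; log2 change 1.45, edgeR adjusted p = 4.72e-06). Of 4 further sterol genes, *Acat1* and *Hsd17b12* were called higher under dbcAMP (50%), with log2 changes of 0.68 and 0.53, and 0% were called lower. Among 6 genes of fatty acid uptake and oxidation, *Cpt1a* and *Acadm* were called higher (33.3%) and *Hadha* lower (16.7%). *Cpt1a*, the gate for fatty acids into mitochondria, measured 28.2, 107 and 99.7 CPM in undifferentiated, 140, 251 and 173 in differentiated and 73.7, 60.7 and 58.4 in dedifferentiated cells, so that the differentiated libraries were highest while undifferentiated replicate 1 was the lowest of the 9 (log2 change under dbcAMP 1.21, SE 0.379, edgeR adjusted p = 0.0177).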

How the data were processed

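Cell mRNA was measured in 9 libraries, 3 per stage; the miRNA and lncRNA tables of vesicles hold no row of these genes and were not used. The authors deposited estimated counts per gene from salmon, per the table name in the labels; 1.2% of values were fractional and all were rounded. The submitters' processing notes also name STAR, HISAT2 and DESeq2 1.26.0 without a role; salmon's version, the genome build and the annotation are not given in the sources used here. Libraries were made with a directional kit, per the labels' protocols; how strand was used in counting is not given in the sources used here. Columns were matched to samples by library code and stage; their replicate suffix differs from the sample titles, which were followed. The table names no build, and coordinates are those of RefSeq's promoter table (GRCr8).

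CPM are counts over column totals. Tests used edgeR 4.0.16 in R 4.3.3: filterByExpr with a minimum count of 10, TMM, a quasi-likelihood fit of all 9 libraries without covariates, and Benjamini-Hochberg adjustment over 10372 genes, called under 0.05. The standard error (SE) is the absolute log2 change over the square root of F. Alternatives were the replicate block, the sequencing project as a term, DESeq2's size factors, library size alone, DESeq2's Wald test (version 1.42.0), no filter, each library left out, replicates 1 and 2 alone and, chosen after seeing the data, scaling without the 10 most abundant genes. In 3 simulated draws of differentiated against undifferentiated cells over 10261 genes, 84.2% of 2-fold and 97.3% of 4-fold changes were called and 5.94% of calls were false. Each draw changed 200 genes and took the spread from the trend over all genes, without a replicate effect. The mevalonate and sterol genes varied more than most in these stages, so these shares need not hold for them.

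The labels do not say what a replicate number shares. Same-numbered undifferentiated and differentiated libraries deviated together (correlations of 0.304, 0.234 and 0.269 over genes), while the pairs with dedifferentiated cells did not all do so, and values with the block are given where they change a call. The genes and lists were chosen with earlier results of these data known. Values per library are given for genes called with a log2 change above 0.5 in size and for the regulators. Neighbouring genes were named when called with a log2 change above 1 in size, at most 3 per role and direction by p, and where a count was small. Values of a few listed genes are left out.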

Additional observations from a re-analysis of the deposited data

How the results depend on the processing

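Leaving out 1 library at a time gave 10 to 20 members called higher in differentiated than in undifferentiated cells, 4 to 10 called lower and 0 to 1 called higher on withdrawal, and 4 to 11 called higher in dedifferentiated than in undifferentiated cells, where all 9 libraries gave 14, 6, 0 and 6. Of all genes, 53.1% to 57.5%, 37.3% to 43% and 21.4% to 27.4% were then called in either direction in the 3 comparisons. All 9 libraries gave 59.6%, 46.4% and 29.4%. Replicates 1 and 2 alone gave 8, 3 and 3 for the counts of 14, 6 and 6, and 42%, 25.1% and 12.4% of all genes. With the replicate block the counts were 16, 9 and 10, with *Hmgcs1* and *Msmo1* added under dbcAMP, both and *Sc5d* on withdrawal, and *Pmvk*, *Mvd*, *Fdft1* and *Sc5d* against undifferentiated cells. The block gave 61%, 48.5% and 31.4% of all genes called in either direction. Over all stages, deviations of same-numbered libraries correlated at 0.028 to 0.304 over genes, above 0.1 in 7 of 9 pairs and in 3 of 3 between undifferentiated and differentiated cells, and in 8 of the 9 the library of the earlier stage correlated best with its own number. The other alternatives over all libraries gave 13 to 16, 4 to 7 and 5 to 9. No alternative turned the direction of a called member. Calls kept in all 14 alternatives were those of *Acaca*, *Acly*, *Cyp51*, *Fasn*, *Lss*, *Mvd*, *Sc5d* and *Scap* under dbcAMP, of *Acly*, *Fasn* and *Scap* on withdrawal and of *Acaca*, *Lss* and *Scap* against undifferentiated cells. Without the 10 most abundant genes or with DESeq2's size factors *Dhcr7* lost its call under dbcAMP and *Acly* its call against undifferentiated cells.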
